A study of Mus musculus with 21 samples.

Results

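Nascent RNA was compared between mouse cortical cultures 1 h after bicuculline and control cultures 4 h after water, both pretreated with the solvent DMSO. The comparison holds 6 of the series' 21 libraries, 3 in each group, chosen by their treatment labels. Primary cortical neurons of CD1 mice, of mixed sex, were used on day in vitro 17 (DIV17). After 30 min in DMSO, the cultures received 40 µM bicuculline methiodide for 1 h, or sterile water for 4 h. Every culture was given 2 mM bromouridine for the last 30 min, so the label covers transcription late in each treatment. The labels name no DMSO culture that received water for 1 h, so treatment and time differ together in this comparison and cannot be told apart within it. Cultures that first received 25 µM MM401, a peptidomimetic inhibitor of the MLL1 (Kmt2a) complex, in place of DMSO include water for 1 h, and 6 of those libraries are set beside the main ones where time matters. The design text calls the replicates biological, without saying whether they came from separate dissections.

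Bicuculline blocks GABA-A receptors, so a network of cortical neurons loses fast inhibition and fires in bursts. Calcium that enters during this firing activates kinases and calcineurin, which act on factors already in the nucleus such as CREB, SRF and MEF2. A first wave of genes is thereby transcribed without new protein synthesis. It includes transcription factors that act on later genes, but also signalling inhibitors, secreted factors and synaptic proteins. Bromouridine enters RNA as it is made, so captured RNA reports synthesis in the labelling window rather than the standing pool of transcripts.

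The deposited table counts reads over whole genes, introns included. The 6 libraries held 53224745 to 84833695 counts in genes. Levels are CPM (counts scaled to a common library total), and fold changes are log2 ± SE from 1 edgeR fit over 20 libraries. A 21st library, of another group, held 316741 counts and was left out of that fit. Markers of several cell types were present in both groups, none of them at 0 in all 6 libraries. Summed per kb of gene, the 12 pan-neuronal markers reached 50.8 to 55.4 CPM per kb after bicuculline and 36.7 to 41.5 in water, and the 15 astrocyte markers 76.9 to 137 and 68.6 to 130. Excitatory (14.9 to 22.6 and 10.5 to 14.8), inhibitory (10.5 to 12.1 and 7.05 to 7.32), oligodendrocyte lineage (12.7 to 15.2 and 13.5 to 18.8), microglial (7.50 to 8.86 and 8.08 to 9.99) and endothelial (0.691 to 0.772 and 0.554 to 0.575) markers summed to less than these. The cultures thus held glia as well as neurons, and in bulk libraries fewer cells of a type and less RNA per cell cannot be told apart. Water replicate 1 stood apart from the other water libraries, with 33.6% of its counts in genes over 300 kb against 29.3% and 28.3%, while the bicuculline libraries held 31.5%, 31.7% and 32.2%.

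Nascent transcription differed widely between the groups, and mostly by small amounts. Of 16959 genes tested, 3396 were called higher (20.0%) and 4161 lower (24.5%) at an edgeR adjusted p under 0.05, 44.6% in all. Changes of at least 2-fold ran mainly upwards, with 549 genes higher (3.24%) and 149 lower (0.879%). CPM did not overlap between the groups for 8031 genes (47.4%). The median log2 fold change over all genes tested was -0.04. This balance depended on the scaling. With plain library size in place of TMM, the median of all genes moved to -0.23, and 1836 genes were called higher and 6818 lower, of which 378 and 388 by at least 2-fold, so the excess of large increases was not seen with that scaling, and fold changes below are best read against the median of all genes. Among genes with a RefSeq biotype, 20.9% of 15012 protein-coding genes were called higher and 25.7% lower, against 14.3% and 15.2% of 1345 long noncoding RNA genes. At 2-fold or more, 3.14% of the coding and 4.54% of the noncoding genes were higher, and 0.726% and 2.23% lower.

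**Figure D1:**
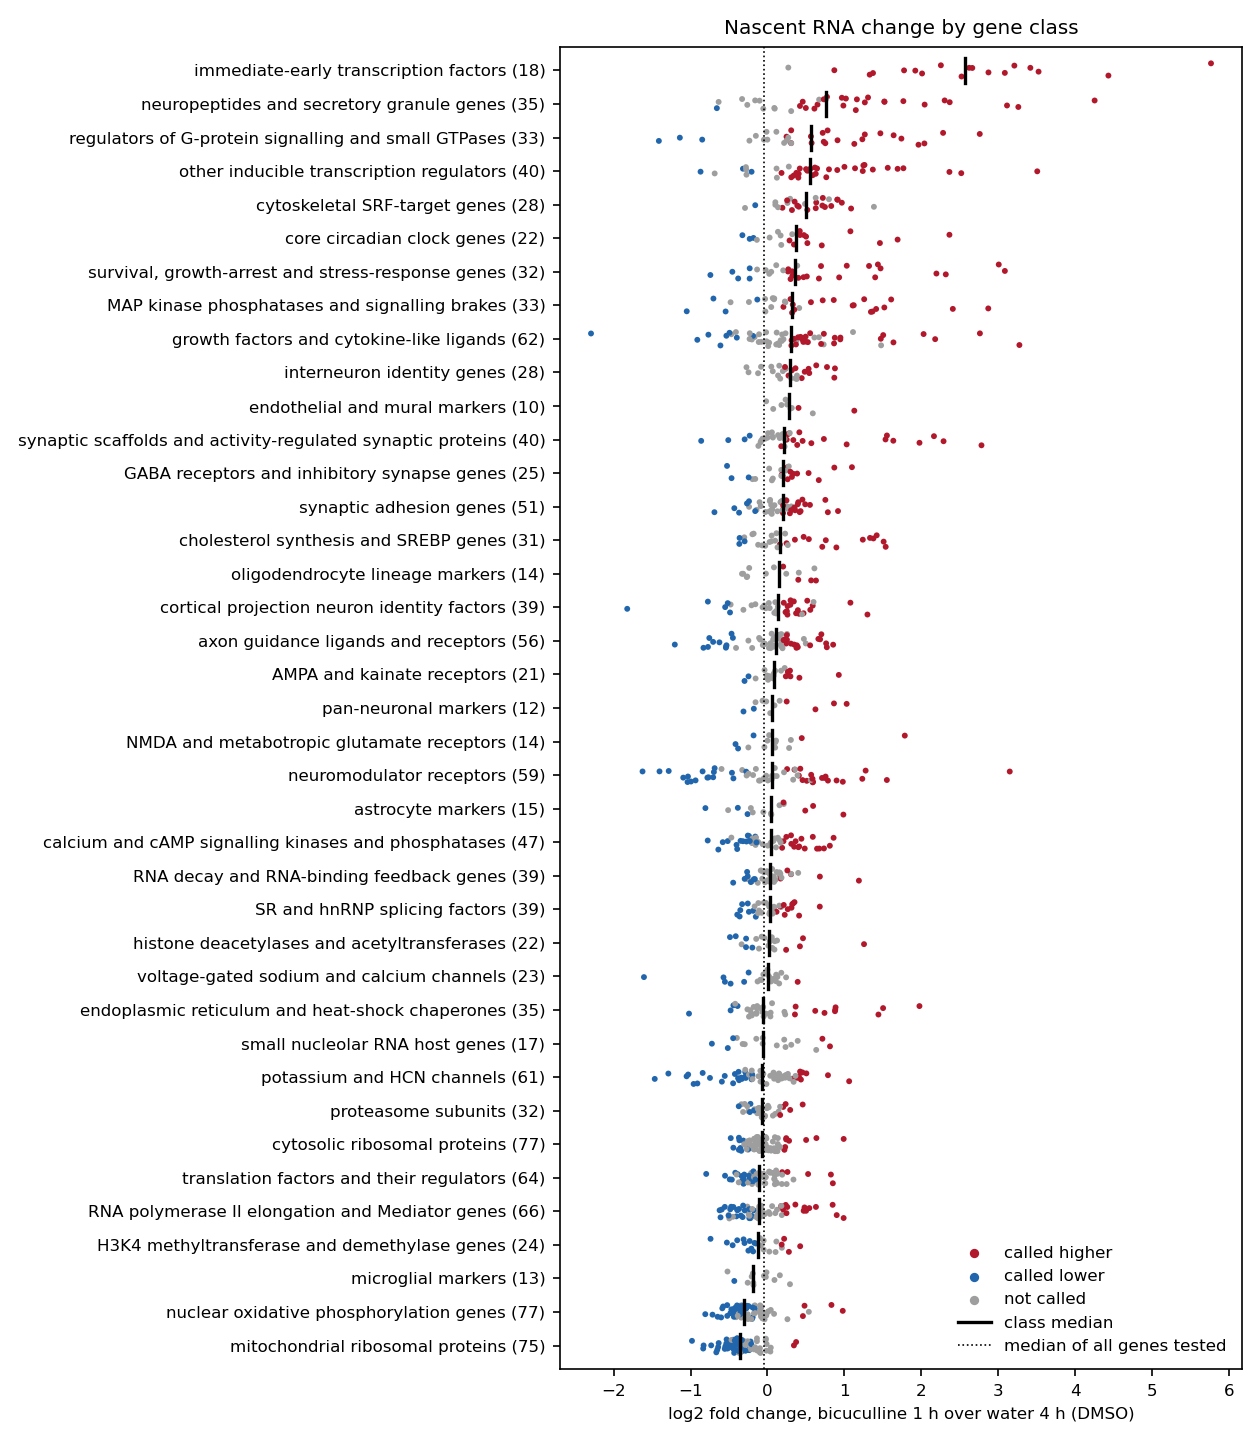
Log2 fold change of bicuculline 1 h over water 4 h (x axis) for the tested members of 39 gene classes (rows, number tested in brackets), 1 point per gene, red where called higher, blue where called lower and grey where not called. Black ticks are class medians, which run from 2.57 for immediate-early transcription factors to -0.35 for mitochondrial ribosomal proteins, and the dotted line is the median of all genes tested, -0.04.

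Outside the immediate-early transcription factors, the 12 largest increases among genes of at least 2 CPM came from genes of varied function, peptide precursors and signalling inhibitors among them. They spanned log2 fold changes of 2.73 to 4.26, and all 12 were also called higher in the time-matched MM401 libraries. Of these, 3 encode peptide precursors. Nts (chr10:102481756-102490418, minus strand, mm10) encodes the precursor of neurotensin, a peptide that modulates dopamine signalling, and was at 16.3, 13.2 and 15.8 CPM after bicuculline and 0.755, 0.880 and 0.717 CPM in water. The log2 difference of 4.26 ± 0.13 was the largest of the 12 (edgeR adjusted p = 3.35e-16). Crh, for corticotropin-releasing hormone, was at 4.48, 3.44 and 1.67 CPM after bicuculline and 0.258, 0.528 and 0.292 CPM in water (3.12 ± 0.40, edgeR adjusted p = 5.81e-06). Nms, for neuromedin S, was at 2.51, 2.69 and 2.36 CPM after bicuculline and 0.368, 0.551 and 0.199 CPM in water (2.73 ± 0.28, edgeR adjusted p = 1.63e-07). Of these 3 genes, Crh varied most among the bicuculline libraries. The genes named for the size of their change, here and in the gene groups, were chosen among those whose libraries did not overlap between the groups, so that separation is a condition of the choice and not a result.

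Dusp1 (chr17:26505591-26508472, minus strand, mm10), which encodes a phosphatase that switches off MAP kinases, was at 135, 113 and 94.8 CPM after bicuculline and 13.9, 14.9 and 17.8 CPM in water (2.87 ± 0.12, edgeR adjusted p = 6.09e-13). Btg2 (chr1:134074865-134079155, minus strand, mm10), an antiproliferative adaptor of the CCR4-NOT deadenylase, was at 205, 190.3 and 166 CPM after bicuculline and 18.9, 22.1 and 28.6 CPM in water (3.01 ± 0.15, edgeR adjusted p = 1.46e-10). Ifrd1, a transcriptional coregulator, was at 689, 611 and 735 CPM after bicuculline and 91.5, 91.3 and 102 CPM in water (2.84 ± 0.10, edgeR adjusted p = 2.57e-15). Ifrd1 holds Mir1938 within its span, and its reads include any from that gene. Per length they were at means of 43.6 (Btg2), 39.6 (Dusp1) and 33.8 (Ifrd1) CPM per kb after bicuculline, against 1.74 for Nts.

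The other large increases included a transcription factor, a receptor and a synaptic gene. Klf4 (chr4:55527137-55532475, minus strand, mm10), a zinc-finger transcription factor, was at 7.65, 7.15 and 7.70 CPM after bicuculline and 0.516, 0.645 and 0.783 CPM in water (3.51 ± 0.14, edgeR adjusted p = 2.00e-14). Ccn1 (chr3:145646971-145649985, minus strand, mm10), a secreted matricellular protein and a classical SRF and YAP target, was at 228, 193 and 171 CPM after bicuculline and 17.1, 18.4 and 25.3 CPM in water (3.28 ± 0.14, edgeR adjusted p = 1.05e-11). Ptgs2, the inducible cyclooxygenase that makes prostaglandin precursors, was at 125, 95.3 and 109 CPM after bicuculline and 15.05, 12.5 and 11.3 CPM in water (3.09 ± 0.18, edgeR adjusted p = 3.53e-09). Tnmd, which encodes the membrane glycoprotein tenomodulin, was at 9.75, 9.34 and 9.89 CPM after bicuculline and 1.23, 1.33 and 1.13 CPM in water (2.97 ± 0.13), and Arc, a synaptic regulator of AMPA receptor endocytosis, rose by 2.78 ± 0.16. Bdkrb2 (chr12:105563172-105593071, plus strand, mm10), the bradykinin B2 receptor, was at 5.72, 6.35 and 4.77 CPM after bicuculline and 0.663, 0.516 and 0.730 CPM in water (3.15 ± 0.25, edgeR adjusted p = 2.16e-09). Against 1 h water under MM401 it was at 0.90 ± 0.23 (edgeR adjusted p = 0.00312), where the water libraries themselves stood at 1.18 to 2.52 CPM.

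The promoters of the 4 genes with the largest increases outside the immediate-early list are shown because cAMP and calcium signalling is known to act through short elements near transcription starts. Each shows the 250 bases before the RefSeq start (GRCm38.p6), and the search also took in the 50 bases after it. Those of Btg2 and Dusp1 were added after their matches were seen. Capitals mark a match to the AP-1 motif TGANTCA (bound by Fos and Jun dimers) or to the cAMP response element TGACGTCA (CRE, bound by CREB), searched on both strands; these 2 motifs cannot match the same letters.
Nts, chr10:102490419-102490668, minus strand: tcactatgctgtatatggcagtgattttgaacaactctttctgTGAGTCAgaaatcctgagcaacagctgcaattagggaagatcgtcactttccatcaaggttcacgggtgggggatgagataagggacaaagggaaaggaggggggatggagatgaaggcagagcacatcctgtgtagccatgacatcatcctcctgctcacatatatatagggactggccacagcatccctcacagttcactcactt
Klf4, chr4:55532476-55532725, minus strand: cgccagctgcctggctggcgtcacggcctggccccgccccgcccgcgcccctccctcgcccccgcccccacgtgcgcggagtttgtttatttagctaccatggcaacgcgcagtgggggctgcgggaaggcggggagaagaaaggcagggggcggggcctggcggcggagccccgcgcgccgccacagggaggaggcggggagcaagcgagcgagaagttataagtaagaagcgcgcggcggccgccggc
Ccn1, chr3:145649986-145650235, minus strand: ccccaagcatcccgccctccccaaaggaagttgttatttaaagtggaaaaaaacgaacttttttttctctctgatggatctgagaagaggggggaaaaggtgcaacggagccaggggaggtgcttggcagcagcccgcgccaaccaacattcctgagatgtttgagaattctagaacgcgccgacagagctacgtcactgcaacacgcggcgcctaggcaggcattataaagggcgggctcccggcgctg
Bdkrb2, chr12:105562922-105563171, plus strand: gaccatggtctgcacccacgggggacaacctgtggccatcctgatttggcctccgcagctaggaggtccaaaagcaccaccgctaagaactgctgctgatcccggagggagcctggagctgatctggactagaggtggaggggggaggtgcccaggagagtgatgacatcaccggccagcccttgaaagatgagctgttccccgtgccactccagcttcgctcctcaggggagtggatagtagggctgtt
Btg2, chr1:134079156-134079405, minus strand: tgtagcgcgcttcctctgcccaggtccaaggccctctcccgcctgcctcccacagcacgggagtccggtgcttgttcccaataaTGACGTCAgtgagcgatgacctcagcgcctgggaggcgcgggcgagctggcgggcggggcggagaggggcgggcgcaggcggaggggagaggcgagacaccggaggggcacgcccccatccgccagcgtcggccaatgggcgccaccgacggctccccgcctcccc
Dusp1, chr17:26508473-26508722, minus strand: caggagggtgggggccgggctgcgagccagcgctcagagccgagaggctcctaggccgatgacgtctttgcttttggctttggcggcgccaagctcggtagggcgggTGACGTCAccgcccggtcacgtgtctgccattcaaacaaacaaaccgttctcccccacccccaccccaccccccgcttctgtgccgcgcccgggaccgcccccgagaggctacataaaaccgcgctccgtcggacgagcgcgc
The Nts promoter held an AP-1 match at position -207 from the start. Those of Btg2 and Dusp1 held a CRE at -166 and -143. The letters searched were not in these windows of Klf4, Ccn1 and Bdkrb2.

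Across the series' genes, promoters were found for 13345 of 16959 tested genes, as 16714 windows. The CRE was in 2.76% of these windows, AP-1 in 5.67%, the Egr motif GCGTGGGCG in 1.07% and a CArG box, which SRF binds, in 1.32%. For genes called at least 2-fold higher, 405 of 549 had a promoter, and their 499 windows held the CRE in 4.81%, AP-1 in 11.8%, Egr in 1.00% and CArG in 3.41%. For genes called at least 2-fold lower, 107 of 149 had one, and their 121 windows held these motifs in 1.65%, 1.65%, 0.826% and 1.65%. Among the 9104 windows of genes not called, the shares were 2.59%, 6.20%, 0.912% and 1.33%. The AP-1 share was thus highest among the 2-fold higher genes and lowest among the 2-fold lower genes, where it rests on 2 windows. These shares are descriptions, and a match is not evidence of binding.

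The 12 largest decreases were smaller than the increases, with log2 fold changes of -1.91 to -1.34, and came from genes at low levels. They included developmental regulators. Ovol2 (chr2:144305176-144332080, minus strand, mm10), a zinc-finger repressor, was at 2.22, 2.80 and 2.17 CPM after bicuculline and 6.82, 6.44 and 6.32 CPM in water (-1.43 ± 0.12, edgeR adjusted p = 3.67e-09). Hes5 (chr4:154960923-154962371, plus strand, mm10), a repressor downstream of Notch, was at 1.38, 0.817 and 1.06 CPM after bicuculline and 2.36, 3.75 and 4.85 CPM in water (-1.77 ± 0.20, edgeR adjusted p = 3.75e-07). Dact2, an inhibitor of Wnt and TGF-β signalling, was at 2.74, 2.54 and 1.91 CPM after bicuculline and 6.54, 6.92 and 8.23 CPM in water (-1.58 ± 0.14, edgeR adjusted p = 9.42e-09). Genes of membrane and cytoskeletal proteins fell as well. Vstm2l, which encodes an immunoglobulin-domain protein, was at 4.58, 5.27 and 5.32 CPM after bicuculline and 15.1, 14.5 and 18.03 CPM in water (-1.65 ± 0.10, edgeR adjusted p = 1.40e-11). Scn4b, the β4 subunit of voltage-gated sodium channels, was at 1.17, 1.86 and 1.32 CPM after bicuculline and 4.24, 4.50 and 4.66 CPM in water (-1.61 ± 0.16). Gpr12, a G-protein-coupled receptor, was at 0.826, 0.841 and 0.650 CPM after bicuculline and 2.67, 2.46 and 3.07 CPM in water (-1.80 ± 0.16). Of the small GTPases that shape actin, Rnd1 fell by 1.41 and Rhof by 1.34 on the log2 scale, and the proline-rich membrane protein gene Prrt3 by 1.45. Tmem121b, Emx1 and Ankrd63 completed the 12. Of these decreases, 11 were also called in the time-matched MM401 libraries. Hes5 was the exception, at 0.14 ± 0.20 (edgeR adjusted p = 0.628).

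**Figure D2:**
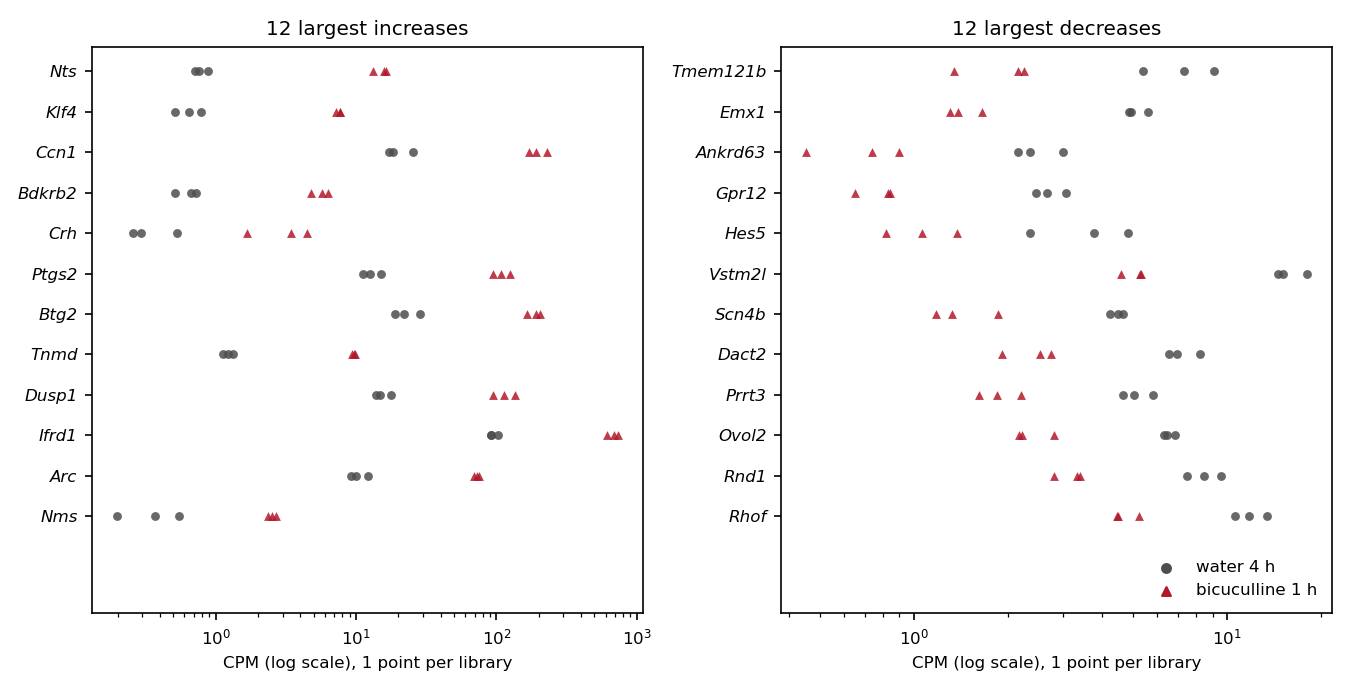
CPM on a log scale (x axis) of the 12 genes with the largest increase (left) and decrease (right) outside the immediate-early transcription factors, 1 point per library, with circles for water 4 h and triangles for bicuculline 1 h. Genes were chosen among those without overlap between the groups. The increases cover a wider span of levels than the decreases, none of which reached 20 CPM.

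Most of these genes differed between 1 h and 4 h of bicuculline, against the direction of their change at 1 h. They were picked by their 1 h values, which favours such a difference in advance. The 4 h and 1 h comparisons share the 1 h libraries, so their values are set side by side only; over all genes, 19.1% were called higher and 15.2% lower at 4 h than at 1 h, 34.2% in all. Of the 12 largest increases, 9 were lower at 4 h than at 1 h and 1, Nms, was higher (0.83 ± 0.22, edgeR adjusted p = 0.00554). Ccn1 stood at -2.06 ± 0.13, Btg2 at -2.01 ± 0.15, Tnmd at -2.04 ± 0.12 and Bdkrb2 at -2.67 ± 0.24 relative to 1 h (log2). Nts, at -0.04 ± 0.10 (edgeR adjusted p = 0.803), and Ifrd1, at -0.02 ± 0.09 (edgeR adjusted p = 0.916), were not called between the times. Of the 12 largest decreases, 8 were higher at 4 h than at 1 h, Ovol2 by 1.74 ± 0.12, Hes5 by 1.603 ± 0.20 and Emx1 by 1.51 ± 0.12. Scn4b was lower still at 4 h (-0.70 ± 0.18).

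**Figure D3:**
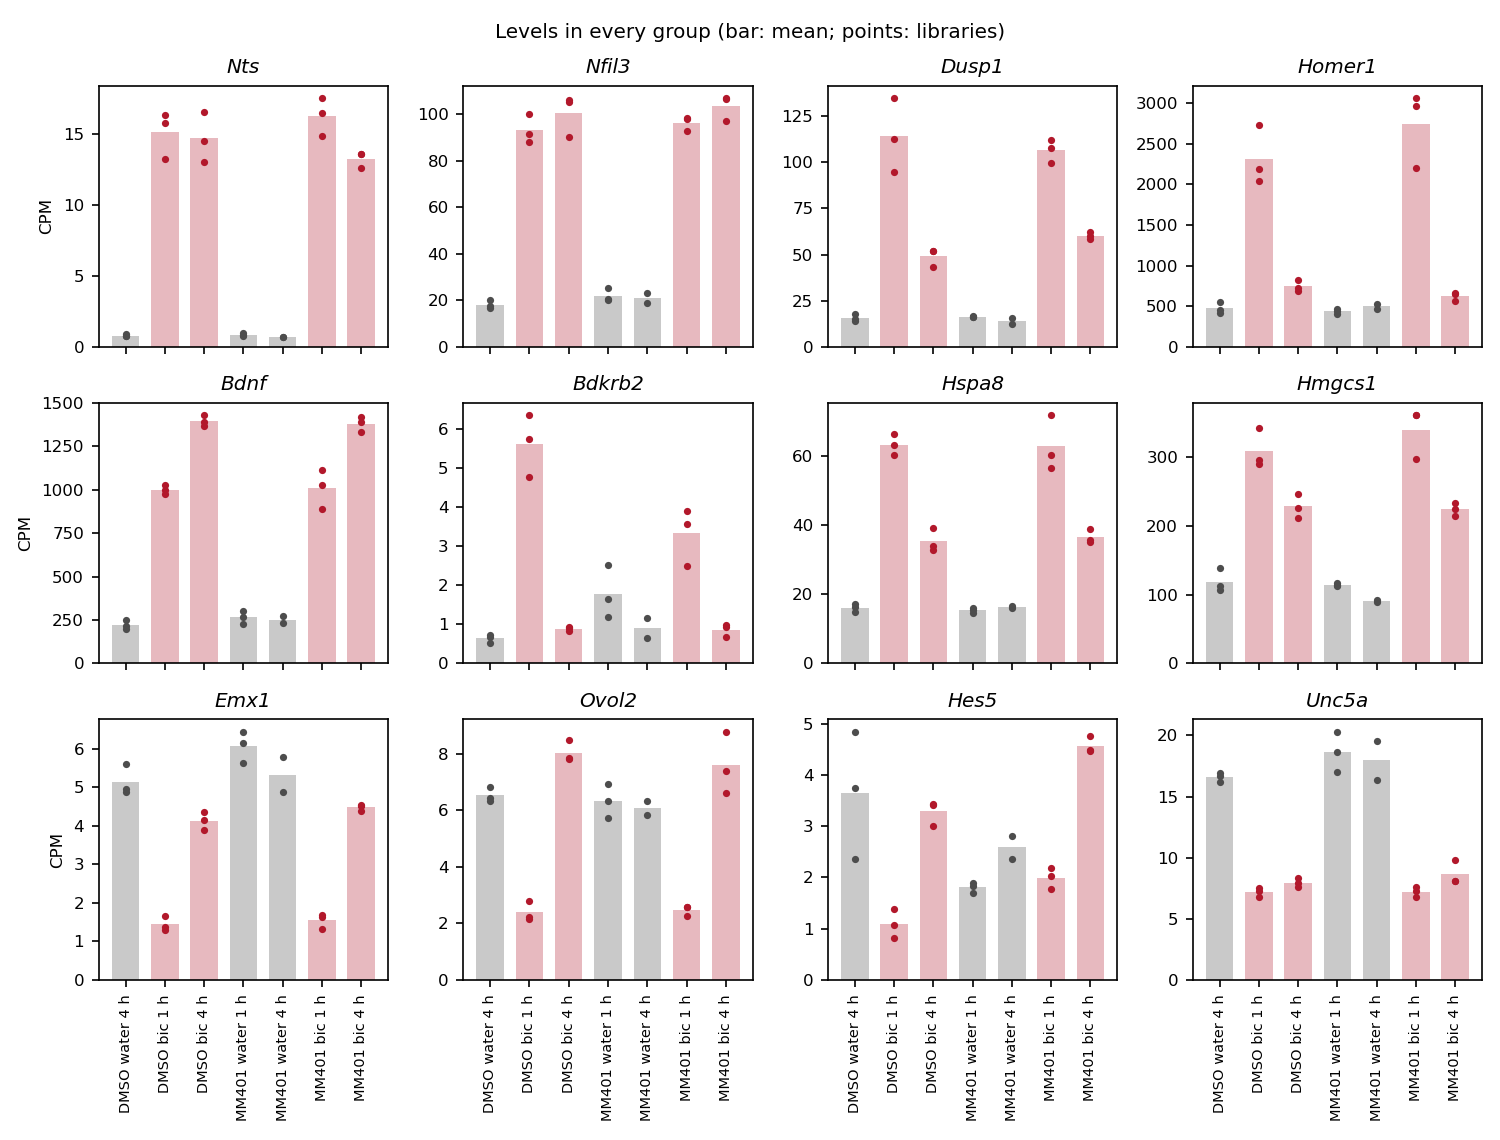
CPM (y axis, linear) of 12 genes in all 7 groups of the series, with bars for group means and points for libraries, red for bicuculline and grey for water. Nts and Nfil3 overlap between 1 h and 4 h of bicuculline, Dusp1, Homer1 and Hspa8 were lower at 4 h, and Emx1 and Ovol2 were low at 1 h only, whereas Unc5a was low at both times.

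Immediate-early transcription factors had the highest median of the gene groups. For each group below, the brackets give the shares called higher and lower, then those among all tested genes in the same length classes (like length), then the numbers called higher and lower with plain library size. Of 18 immediate-early factors tested, 17 rose and none fell (94.4% and 0%, against 10.9% and 27.5% of genes of like length; 17 and 0 with plain library size), 16 of them by at least 2-fold, with a median log2 fold change of 2.57 against -0.04 for all genes. Their share of all counts was 0.328% ± 0.008 (SD, n = 3) after bicuculline and 0.047% ± 0.007 in water, with no overlap (exact two-sided permutation p = 0.1, the smallest that 3 against 3 can give). Beyond Fos and Egr1, Egr4 was at 34.6, 34.5 and 39.7 CPM after bicuculline and 2.67, 3.20 and 4.22 CPM in water (3.42 ± 0.18), the stress-responsive factor Atf3 at 98.2, 96.04 and 99.4 CPM after bicuculline and 8.31, 10.9 and 12.3 CPM in water (3.21 ± 0.10), and the orphan nuclear receptor Nr4a2 at 67.9, 68.4 and 78.5 CPM after bicuculline and 10.04, 9.10 and 10.2 CPM in water (2.87 ± 0.15). Egr3 rose least of those called, by 0.87 ± 0.10. Ier5 was the member not called, at 0.27 ± 0.14 (edgeR adjusted p = 0.124), with overlapping groups. Of 40 other inducible regulators, 30 rose and 3 fell (75% and 7.50%, against 16.2% and 26.4% of genes of like length; 22 and 6 with plain library size), with a median of 0.55. Without water replicate 2, 1 fell, and without water replicate 1, 5. Maff, a small Maf protein, was at 7.99, 8.03 and 8.97 CPM after bicuculline and 0.976, 1.29 and 2.02 CPM in water (2.52 ± 0.20, edgeR adjusted p = 3.70e-09). Klf10, a Krüppel-like factor, fell, from 23.7, 22.8 and 28.5 CPM in water to 15.99, 11.9 and 13.1 CPM (-0.87 ± 0.12, edgeR adjusted p = 4.03e-06), opposite to its relative Klf4.

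Among core clock genes, several of which are known CREB targets, more rose than fell. Of 22 tested, 13 rose and 3 fell (59.1% and 13.6%, against 22.1% and 23.03% of genes of like length; 9 and 4 with plain library size), or 1 without water replicate 2, with a median of 0.37. Nfil3, a repressor of D-box elements, was at 88.2, 100.3 and 91.7 CPM after bicuculline and 16.6, 17.6 and 20.02 CPM in water (2.37 ± 0.10, edgeR adjusted p = 1.11e-13). Per1, a repressor of CLOCK and BMAL1, was at 85.7, 97.04 and 97.6 CPM after bicuculline and 26.6, 30.8 and 29.2 CPM in water (1.69 ± 0.09, edgeR adjusted p = 4.98e-12). Ciart, another repressor of the loop, rose by 1.46 ± 0.14, and its span overlaps a gene on the other strand. Tef, a D-box activator that Nfil3 opposes, was lower, at 41.02, 41.8 and 40.7 CPM against 46.6, 51.2 and 56.9 CPM (-0.33 ± 0.06, edgeR adjusted p = 2.44e-04).

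Inhibitors of MAP kinase and cAMP signalling rose more often than they fell. Of 33 MAP kinase phosphatases and signalling brakes, 18 rose and 4 fell (54.5% and 12.1%, against 15.8% and 26.9% of genes of like length; 14 and 5 with plain library size), 10 and 1 of them by at least 2-fold, with a median of 0.32. Besides Dusp1, Dusp14 was at 148, 138 and 165 CPM after bicuculline and 27.4, 27.02 and 30.4 CPM in water (2.41 ± 0.08, edgeR adjusted p = 6.81e-16). Sik1, a kinase that retains CREB coactivators in the cytoplasm, was at 32.7, 34.6 and 35.5 CPM after bicuculline and 10.1, 10.98 and 12.6 CPM in water (1.61 ± 0.08, edgeR adjusted p = 1.25e-12). Dusp7, which acts on ERK, moved the other way, at 7.30, 7.10 and 6.13 CPM after bicuculline and 11.2, 14.1 and 17.2 CPM in water (-1.05 ± 0.15, edgeR adjusted p = 7.73e-06). The suppressor of cytokine signalling Socs2 (-0.54 ± 0.09) and the pseudokinase Trib3 (-0.70 ± 0.16) were also called lower.

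Of 33 regulators of G-protein signalling and small GTPases, 20 rose and 3 fell (60.6% and 9.09%, against 21.9% and 21.6% of genes of like length; 18 and 5 with plain library size), with a median of 0.57. Rgs2, which speeds GTP hydrolysis on Gq, was at 308, 290.2 and 239 CPM after bicuculline and 62.9, 78.02 and 73.4 CPM in water (1.96 ± 0.13, edgeR adjusted p = 1.05e-09). Rheb, the GTPase that activates mTORC1, was at 432, 453 and 525 CPM after bicuculline and 142, 137 and 143 CPM in water (1.74 ± 0.08, edgeR adjusted p = 3.07e-13). Rgs4, which acts on Gi and Gq, rose with more spread, at 275, 323 and 239.8 CPM after bicuculline and 70.8, 116 and 81.8 CPM in water (1.64 ± 0.22, edgeR adjusted p = 3.58e-05). Rgs19 was lower, like Rnd1, by -0.85 ± 0.16. Per length, Rgs2 and Rgs4 were transcribed far more than Rheb after bicuculline, at 57.98 and 45.3 against 11.9 CPM per kb.

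Kinases and phosphatases of calcium and cAMP signalling moved in both directions, 17 of 47 higher and 15 lower (36.2% and 31.9%, against 29.9% and 17.3% of genes of like length; 12 and 22 with plain library size). Fewer were lower without bicuculline replicate 1 or 3 or water replicate 2 (9) and when all 21 libraries were fitted (6). The catalytic subunit gene Prkacb of protein kinase A was at 404, 388 and 418 CPM after bicuculline and 250.1, 246 and 231 CPM in water (0.74 ± 0.06, edgeR adjusted p = 4.33e-09), and the calcineurin regulator Rcan2 rose by 0.81 ± 0.08. Among those lower were Nrgn, the calmodulin-binding protein neurogranin, at 11.9, 13.9 and 11.9 CPM after bicuculline and 20.6, 23.02 and 21.2 CPM in water (-0.78 ± 0.10, edgeR adjusted p = 2.78e-06), Pde1b, a calmodulin-dependent phosphodiesterase (-0.64 ± 0.06), and Camkk1, a kinase upstream of CaMKI and CaMKIV (-0.58 ± 0.10).

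Among genes of secreted signals, more rose than fell. Of 35 neuropeptide and secretory granule genes, 23 rose and 1 fell (65.7% and 2.86%, against 16.7% and 24.7% of genes of like length; 20 and 5 with plain library size). By at least 2-fold 14 rose, and the median was 0.76. Next to Nts and Crh, Pcsk1, the convertase that cleaves prohormones, was at 346, 318 and 345 CPM after bicuculline and 72.5, 66.2 and 56.5 CPM in water (2.37 ± 0.10, edgeR adjusted p = 1.49e-13). The member called lower with TMM scaling was Igfbp4, a binding protein of insulin-like growth factors and no peptide itself, at 1.68, 1.90 and 1.69 CPM after bicuculline and 2.41, 3.20 and 2.70 CPM in water (-0.66 ± 0.16, edgeR adjusted p = 0.00185). Of 62 growth factors and cytokine-like ligands, 26 rose and 8 fell (41.9% and 12.9%, against 19.8% and 24.95% of genes of like length; 18 and 13 with plain library size), with a median of 0.31. Without bicuculline replicate 2, 5 fell, and with all 21 libraries 4. Bmp2, a ligand of the TGF-β superfamily, was at 14.99, 13.8 and 12.1 CPM after bicuculline and 3.35, 3.37 and 3.28 CPM in water (2.03 ± 0.15, edgeR adjusted p = 6.80e-10), and Bdnf rose by 2.18 ± 0.10. Stc1, the glycoprotein hormone stanniocalcin, was lower at 5.30, 4.88 and 4.63 CPM after bicuculline and 10.2, 8.48 and 9.32 CPM in water (-0.91 ± 0.10, edgeR adjusted p = 3.66e-07), as was the inhibin α gene Inha (-0.61 ± 0.14).

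Synaptic scaffolds rose more often than they fell. Of 40 scaffolds and activity-regulated synaptic proteins, 18 rose and 4 fell (45% and 10%, against 29.9% and 16.6% of genes of like length; 13 and 8 with plain library size), with a median of 0.21, and 8 rose by at least 2-fold. Without 1 library the higher count ran from 14 to 25 and the lower from 2 to 4 (2 without any 1 bicuculline library or water replicate 1). Next to Arc and Homer1, Grasp, which binds group I metabotropic glutamate receptors, was at 59.1, 63.6 and 60.1 CPM after bicuculline and 14.98, 13.8 and 12.03 CPM in water (2.17 ± 0.10, edgeR adjusted p = 1.20e-13); it overlaps a gene on the other strand. Synpo, the actin-binding protein of the spine apparatus, was lower, at 22.02, 23.6 and 22.2 CPM after bicuculline and 36.2, 38.5 and 48.4 CPM in water (-0.86 ± 0.09, edgeR adjusted p = 6.68e-08). Stx1a, a presynaptic SNARE protein, was lower too (-0.51 ± 0.14, edgeR adjusted p = 0.00667).

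Of 21 AMPA and kainate receptor genes, 7 were called higher and 2 lower (33.3% and 9.52%, against 38.3% and 9.996% of genes of like length; 1 and 5 with plain library size). Without bicuculline replicate 3 or water replicate 2, 3 were higher and none lower. At matched time under MM401 none of the members was lower in both comparisons, and 1 was called in the opposite direction. Cacng5, an auxiliary subunit, was at 22.001, 23.8 and 24.3 CPM after bicuculline and 10.8, 12.2 and 13.7 CPM in water (0.93 ± 0.09, edgeR adjusted p = 2.07e-08). Of 14 NMDA and metabotropic glutamate receptor genes, 2 were higher and 3 lower (14.3% and 21.4%, against 34.7% and 13.5% of genes of like length; 1 and 3 with plain library size). Without water replicate 1, 6 were higher, without bicuculline replicate 2, 1 was lower, and 1 was called in the opposite direction at matched time. For water over time under MM401, 2 of the 14 were called higher, against 0.265% of all genes. Grin3a, a subunit that lowers the calcium permeability of NMDA receptors, was at 70.3, 69.7 and 73.8 CPM after bicuculline and 98.4, 91.9 and 88.2 CPM in water (-0.38 ± 0.08, edgeR adjusted p = 2.77e-04), and it holds Ppp3r2 within its span. Of 25 genes of GABA receptors and inhibitory synapses, 11 were higher and 3 lower (44% and 12%, against 31.7% and 16.04% of genes of like length; 5 and 6 with plain library size), or 6 higher with all 21 libraries. Gad1, which makes GABA, was at 243, 278 and 294 CPM after bicuculline and 149.7, 151 and 145 CPM in water (0.87 ± 0.08, edgeR adjusted p = 1.04e-08), with an antisense gene on the other strand. Lhfpl4, which helps to cluster GABA-A receptors, was lower (-0.47 ± 0.07, edgeR adjusted p = 2.15e-05). The medians of the AMPA (0.08), NMDA (0.06) and GABA (0.20) groups became -0.10, -0.12 and 0.02 with plain library size.

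Ion channel genes were lower more often than higher, as were all genes tested (24.5% against 20.0%). Of 61 potassium and HCN channel genes, 9 rose and 22 fell (14.8% and 36.1%, against 27.3% and 18.6% of genes of like length; 6 and 31 with plain library size), with a median of -0.07. This balance turned without water replicate 1, when 20 rose and 18 fell, and 14 fell when all 21 libraries were fitted. Kcnc4, a voltage-gated potassium channel, was at 5.17, 4.22 and 3.51 CPM after bicuculline and 8.53, 9.10 and 9.21 CPM in water (-1.05 ± 0.16, edgeR adjusted p = 1.32e-05). Kcnh3, an ether-a-go-go family channel whose span meets Mcrs1, was at 4.57, 5.64 and 4.59 CPM after bicuculline and 11.8, 9.78 and 8.86 CPM in water (-1.03 ± 0.13, edgeR adjusted p = 1.61e-06). Hcn2, a pacemaker channel, was at 3.61, 4.29 and 4.08 CPM after bicuculline and 8.49, 7.47 and 7.39 CPM in water (-0.96 ± 0.12, edgeR adjusted p = 9.42e-07). The inward rectifier gene Kcnj2 rose, at 41.2, 37.99 and 44.002 CPM after bicuculline and 17.3, 19.4 and 22.2 CPM in water (1.06 ± 0.09, edgeR adjusted p = 5.08e-09). Of 23 sodium and calcium channel genes, 1 rose and 6 fell (4.35% and 26.1%, against 35.5% and 13.1% of genes of like length; 1 and 13 with plain library size), or 4 rose without water replicate 1. Among the 6 were Scn4b, the T-type channel gene Cacna1h (-0.55 ± 0.11), whose span meets Tpsg1, and the β subunit gene Cacnb3 (-0.57 ± 0.11).

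Of 59 receptors for neuromodulators, 20 were higher and 17 lower (33.9% and 28.8%, against 19.9% and 23.7% of genes of like length; 13 and 21 with plain library size). Htr2a, the excitatory serotonin 2A receptor, was at 48.8, 51.5 and 57.9 CPM after bicuculline and 26.2, 20.8 and 18.3 CPM in water (1.28 ± 0.13, edgeR adjusted p = 3.91e-07). Sstr2, a somatostatin receptor lying within Slc39a11 on the other strand, rose by 1.55 ± 0.11. Its relative Sstr3 fell, at 1.06, 1.30 and 0.709 CPM after bicuculline and 2.10, 2.50 and 3.0004 CPM in water (-1.28 ± 0.21, edgeR adjusted p = 4.24e-05). Adora2a, an adenosine receptor coupled to Gs, was at 3.13, 4.09 and 4.0002 CPM after bicuculline and 6.23, 7.65 and 10.01 CPM in water (-1.09 ± 0.15, edgeR adjusted p = 2.79e-06), and Oprl1, the nociceptin receptor, fell by 1.04 on the log2 scale. Apart from Sstr2, which was not called between 1 h and 4 h (-0.08 ± 0.10, edgeR adjusted p = 0.583), the 4 h values differed by gene, with Adora2a lower still (-1.74 ± 0.17).

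Genes of neuronal identity and wiring changed in both directions. Of 39 projection neuron factors, 17 rose and 5 fell (43.6% and 12.8%, against 26.7% and 17.01% of genes of like length; 8 and 10 with plain library size), or 8 and 5 with all 21 libraries. Tbr1, a T-box factor of deep-layer neurons, was at 26.6, 28.3 and 27.5 CPM after bicuculline and 12.1, 10.6 and 10.8 CPM in water (1.30 ± 0.11, edgeR adjusted p = 5.06e-09). Emx1 fell most (-1.82 ± 0.12), and the homeobox and basic helix-loop-helix factors Lhx2 (-0.55 ± 0.06) and Neurod1 (-0.77 ± 0.13) fell too. All 3 were higher at 4 h than at 1 h of bicuculline, by 1.51 ± 0.12, 0.98 ± 0.06 and 0.98 ± 0.13. Of 28 interneuron genes, 12 rose and none fell (42.9% and 0%, against 19.9% and 23.1% of genes of like length; 7 and 3 with plain library size), with a median of 0.29, and 1 fell without water replicate 1. Vip, a peptide of disinhibitory interneurons, was at 21.4, 21.3 and 19.5 CPM after bicuculline and 11.4, 14.2 and 10.6 CPM in water (0.77 ± 0.14, edgeR adjusted p = 1.17e-04), and the zinc-finger factor Sp8 rose by 0.88 ± 0.12.

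Among 56 axon guidance genes, 17 rose and 11 fell (30.4% and 19.6%, against 33.6% and 14.3% of genes of like length; 9 and 19 with plain library size). The balance was not stable, with 26 higher without water replicate 1, and 9 higher and 11 lower with all 21 libraries. Unc5a, a netrin receptor whose span meets Hk3, was at 6.81, 7.50 and 7.31 CPM after bicuculline and 16.2, 16.7 and 16.9 CPM in water (-1.20 ± 0.09, edgeR adjusted p = 6.82e-10). The Eph receptor gene Epha8 (-0.83 ± 0.15) and the membrane-anchored semaphorin gene Sema7a (-0.77 ± 0.09) fell with it. The ephrin ligand gene Efnb2 rose, at 247, 248 and 256 CPM after bicuculline and 131, 137 and 147 CPM in water (0.85 ± 0.07, edgeR adjusted p = 1.56e-09), as did the secreted semaphorin gene Sema3c (0.76 ± 0.08). Of 51 synaptic adhesion genes, 19 rose and 6 fell (37.3% and 11.8%, against 34.7% and 13.3% of genes of like length; 10 and 12 with plain library size). Without water replicate 1, 31 rose, without replicate 3, 12, and 3 fell without bicuculline replicate 3. Slitrk4, a transmembrane synaptic organizer, was at 88.8, 80.1 and 78.3 CPM after bicuculline and 46.5, 43.6 and 40.9 CPM in water (0.92 ± 0.08, edgeR adjusted p = 1.49e-08), while Lrrc4b, a ligand of presynaptic phosphatases, was at 15.5, 15.8 and 18.2 CPM after bicuculline and 25.1, 25.3 and 29.2 CPM in water (-0.69 ± 0.09, edgeR adjusted p = 1.83e-06) and Nlgn3, a neuroligin, fell by 0.43 on the log2 scale.

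Cytoskeletal targets of SRF rose by moderate amounts, 17 of 28 higher and 1 lower (60.7% and 3.57%, against 18.8% and 24.6% of genes of like length). The median was 0.50. With plain library size, 12 were higher and 2 lower. None was lower with DESeq2, with all 21 libraries, or when any 1 library but bicuculline replicate 3 was left out. Actg1, cytoplasmic γ-actin, was at 31.8, 40.3 and 40.1 CPM after bicuculline and 13.2, 20.96 and 18.3 CPM in water (1.09 ± 0.16, edgeR adjusted p = 3.18e-05), and Vcl, the adhesion protein vinculin, was at 216, 224 and 261 CPM after bicuculline and 121, 121 and 130.1 CPM in water (0.91 ± 0.07, edgeR adjusted p = 6.18e-10). Tpm4, a tropomyosin, rose by 0.97 ± 0.09. Survival, growth-arrest and stress genes included 20 of 32 that rose and 5 that fell (62.5% and 15.6%, against 14.6% and 25.3% of genes of like length; 14 and 5 with plain library size), or 2 that fell without water replicate 3, with a median of 0.36. Of the 5, 1 was also called lower at matched time under MM401. Gadd45g, a growth-arrest gene, was at 30.1, 37.7 and 29.8 CPM after bicuculline and 5.45, 6.50 and 7.51 CPM in water (2.32 ± 0.11, edgeR adjusted p = 1.40e-13). Sesn2, a stress-induced inhibitor of mTORC1, was lower at 15.1, 15.03 and 13.99 CPM after bicuculline and 18.7, 19.99 and 21.8 CPM in water (-0.46 ± 0.07, edgeR adjusted p = 3.64e-05), as was Ddit4, another inhibitor of mTORC1 (-0.74 ± 0.20), but neither was called at matched time, at -0.17 ± 0.08 and 0.13 ± 0.21 (edgeR adjusted p = 0.0704 and 0.652), whereas Rheb, which activates that complex, was higher.

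Cholesterol synthesis genes rose at selected steps. Of 31 genes of synthesis and SREBP control, 14 rose and 3 fell (45.2% and 9.68%, against 14.4% and 30.99% of genes of like length; 10 and 7 with plain library size), and 6 rose by at least 2-fold. Without water replicate 1 or 3, 5 fell. The median was 0.16, or -0.03 with plain library size. At matched time under MM401, 15 were higher and 3 lower (against 18.1% and 21.8% of all genes), with a median of 0.30. For water over time under MM401, none was higher and 2 were lower (against 0.265% and 0.601% of all genes), with a median of -0.17. Hmgcs1, an early synthase of the pathway, was at 291, 296 and 343 CPM after bicuculline and 107, 138 and 113 CPM in water (1.38 ± 0.09, edgeR adjusted p = 8.59e-11). Idi1, an isomerase further down the pathway, was at 24.8, 21.7 and 26.5 CPM after bicuculline and 8.38, 8.71 and 8.46 CPM in water (1.51 ± 0.09, edgeR adjusted p = 5.29e-12). The SREBP escort protein gene Scap fell (-0.36 ± 0.06). Of 35 chaperones, 10 rose and 4 fell (28.6% and 11.4%, against 14.1% and 27.8% of genes of like length; 9 and 12 with plain library size), or 7 without water replicate 1. At matched time under MM401, 11 of the 35 were called higher and none lower (against 18.1% and 21.8% of all genes). Those with the largest rises were cytosolic. Hspa8, the constitutive Hsp70, was at 63.2, 66.3 and 60.3 CPM after bicuculline and 14.7, 16.2 and 17.2 CPM in water (1.98 ± 0.09, edgeR adjusted p = 6.52e-14), and its cofactor Dnajb1 was at 17.7, 16.4 and 18.6 CPM after bicuculline and 5.80, 5.54 and 8.02 CPM in water (1.44 ± 0.14, edgeR adjusted p = 3.43e-08). Pdia6, a disulfide isomerase of the endoplasmic reticulum whose span meets Atp6v1c2, fell by 0.44 on the log2 scale and was at -0.10 ± 0.09 at matched time (edgeR adjusted p = 0.384).

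The machinery of transcription and RNA processing showed small and mixed changes. Of 66 RNA polymerase II elongation and Mediator genes, 15 rose and 21 fell (22.7% and 31.8%, against 17.6% and 25.8% of genes of like length; 10 and 35 with plain library size), or 14 and 14 with all 21 libraries. Ell2, a subunit of the super elongation complex, was at 126, 119.8 and 136 CPM after bicuculline and 64.5, 64.5 and 62.8 CPM in water (0.99 ± 0.07, edgeR adjusted p = 5.16e-10), and its partner Aff1 (0.85 ± 0.10) and the Mediator backbone gene Med14 (0.90 ± 0.10) rose too. Hexim1, an inhibitor of the kinase P-TEFb, was lower, at 2.38, 2.67 and 3.11 CPM after bicuculline and 3.43, 3.87 and 5.16 CPM in water (-0.62 ± 0.16, edgeR adjusted p = 0.00286). Of 39 splicing factors, 11 rose and 8 fell (28.2% and 20.5%, against 14.3% and 29.1% of genes of like length; 4 and 12 with plain library size). With all 21 libraries 5 rose, and 4 fell without bicuculline replicate 2 or 3 or water replicate 2 or 3. Members included Hnrnpa2b1 higher by 0.68 ± 0.07 and Srsf9 lower (-0.39 ± 0.08). Of 39 RNA decay and feedback genes, 5 rose and 7 fell (12.8% and 17.9%, against 27.9% and 18.8% of genes of like length; 2 and 20 with plain library size), or 12 rose without water replicate 1 and 3 without bicuculline replicate 3. Zc3h12c, a relative of the RNase regnase-1, was at 298, 254 and 302 CPM after bicuculline and 125, 125 and 125 CPM in water (1.19 ± 0.07, edgeR adjusted p = 2.53e-11). Cnot8, a deadenylase, was lower (-0.45 ± 0.08).

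Among H3K4 methylation genes, the class the series title concerns, 4 of 24 rose and 12 fell (16.7% and 50%, against 21.01% and 25.1% of genes of like length; 1 and 16 with plain library size). Without water replicate 3, 2 rose, without bicuculline replicate 3 or water replicate 2, 7 fell, and with all 21 libraries 6 fell. Kmt2c, a methyltransferase of enhancers, was at 484, 473 and 504 CPM after bicuculline and 387, 356 and 345 CPM in water (0.43 ± 0.06, edgeR adjusted p = 1.31e-05). Rbbp5, a core subunit of all the KMT2 complexes, was at 21.7, 23.5 and 21.9 CPM after bicuculline and 32.4, 29.2 and 30.3 CPM in water (-0.45 ± 0.06, edgeR adjusted p = 4.24e-06). Pagr1a, a subunit of the KMT2C and KMT2D complexes, was at 2.22, 3.03 and 2.21 CPM after bicuculline and 3.85, 4.34 and 4.33 CPM in water (-0.74 ± 0.13, edgeR adjusted p = 7.71e-05). Kmt2a itself was at 0.19 ± 0.07 (edgeR adjusted p = 0.0327), a call that was lost in some fits that leave out 1 library, and at -0.0012 with plain library size. Of 22 histone deacetylase and acetyltransferase genes, 4 rose and 5 fell (18.2% and 22.7%, against 24.05% and 22.2% of genes of like length; 3 and 11 with plain library size), or 3 fell without bicuculline replicate 3, water replicate 2 or water replicate 3 and 1 with all 21 libraries. The class IIa deacetylase gene Hdac5, whose product leaves the nucleus in active neurons, was at 77.5, 91.4 and 89.9 CPM after bicuculline and 36.9, 35.9 and 35.6 CPM in water (1.26 ± 0.08, edgeR adjusted p = 2.55e-11), and holds Mir8101 within its span.

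Mitochondrial ribosomal protein and oxidative phosphorylation genes had the highest shares of decreases among the gene groups. Of 75 mitochondrial ribosomal protein genes, 2 rose and 48 fell (2.67% and 64%, against 11.7% and 27.4% of genes of like length; 1 and 54 with plain library size), with a median of -0.35 and a median length of 7.63 kb. Mrps24 was at 1.78, 2.74 and 1.69 CPM after bicuculline and 3.08, 4.64 and 4.63 CPM in water (-0.98 ± 0.18, edgeR adjusted p = 1.12e-04), and Mrps2 at 4.06, 3.69 and 3.01 CPM after bicuculline and 5.62, 6.18 and 7.39 CPM in water (-0.83 ± 0.12, edgeR adjusted p = 6.89e-06). Of 77 nuclear genes of oxidative phosphorylation, 4 rose and 41 fell (5.19% and 53.2%, against 11.6% and 27.6% of genes of like length; 1 and 53 with plain library size), or 27 fell without bicuculline replicate 3, with a median of -0.30. The complex I genes Ndufa11, at 2.16, 1.98 and 2.07 CPM after bicuculline and 3.43, 3.51 and 3.93 CPM in water (-0.81 ± 0.11, edgeR adjusted p = 2.94e-06), and Ndufs6 (-0.71 ± 0.13) fell, while the complex III gene Uqcrh rose by 0.46 ± 0.06. Mitochondrial ribosomal decreases numbered at least 32 under every alternative, and those of oxidative phosphorylation at least 27. Under MM401 at matched time, 35 of the 75 and 29 of the 77 were called lower, against 21.8% of all genes. The medians were -0.23 and -0.16.

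Cytosolic ribosomal proteins did not move as a class, 8 of 77 higher and 9 lower (10.4% and 11.7%, against 9.32% and 26.6% of genes of like length; 3 and 23 with plain library size) with a median of -0.08. Without water replicate 3, 4 were lower, and without water replicate 1, 14. Rpl22l1, a paralog of Rpl22, rose by 0.99 ± 0.13, and such genes share sequence with many processed copies. Of 64 translation factors and regulators, 5 rose and 21 fell (7.81% and 32.8%, against 15.3% and 28.9% of genes of like length; 3 and 34 with plain library size), or 7 fell without water replicate 2 and 9 with all 21 libraries. Eif5a was at 11.96, 15.6 and 14.5 CPM after bicuculline and 6.72, 8.44 and 8.09 CPM in water (0.85 ± 0.11, edgeR adjusted p = 1.47e-06), and Eif2ak3, the stress kinase PERK, was at 65.2, 64.2 and 68.1 CPM after bicuculline and 36.8, 35.1 and 39.5 CPM in water (0.83 ± 0.06, edgeR adjusted p = 3.96e-10). Proteasome subunits gave 5 higher and 4 lower of 32 (15.6% and 12.5%, against 14.2% and 28.7% of genes of like length; 1 and 11 with plain library size), 1 lower without bicuculline replicate 3 or water replicate 3 and none lower with all 21 libraries, with Psmd11 higher by 0.46 ± 0.07. Of 17 snoRNA host genes, 2 rose and 3 fell (11.8% and 17.6%, against 11.9% and 25.4% of genes of like length). With plain library size, 2 rose and 6 fell. Without bicuculline replicate 1, 1 rose and 5 fell, and without water replicate 1, 4 rose and 5 fell. Snhg1 was higher by 0.81 ± 0.10 and Snhg17 lower (-0.52 ± 0.09).

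Direction went with gene length. Genes under 10 kb were called higher in 9.26% and lower in 26.5% of 4472 cases, and genes of 10 to 30 kb in 13.8% and 34.0% of 5426. In the 30 to 100 kb class the shares were 25.5% and 21.9% of 4685. Genes of 100 to 300 kb were called higher in 42.7% and lower in 5.44% of 1801, and those over 300 kb in 49.7% and 0.938% of 533. Median log2 fold changes followed the same order, at -0.19, -0.13, 0.03, 0.17 and 0.25. Increases of at least 2-fold had the opposite order, at 3.62%, 3.58%, 3.14%, 2.39% and 0.375%. Without water replicate 1, the library with the largest share of counts in the longest genes, 76.7% of genes over 300 kb were called higher, and without water replicate 3 37.1%. With plain library size the medians of the 2 longest classes were -0.02 and 0.07, still above -0.39 for genes under 10 kb. As a share of all counts, genes of 100 to 300 kb held 29.8% ± 0.40 after bicuculline and 28.6% ± 0.07 in water (SD, n = 3, exact permutation p = 0.1, the smallest possible), and those over 300 kb 31.8% ± 0.37 and 30.4% ± 2.83 (exact permutation p = 0.4). In the MM401 libraries at matched time, from the shortest class to the longest, 11.99%, 11.8%, 19.9%, 38.6% and 49.5% were called higher, 16.97%, 31.2%, 24.9%, 4.16% and 0.188% lower, and the medians were -0.04, -0.11, -0.01, 0.16 and 0.25. The longer classes thus stood in the same order, while the 2 shortest did not differ as they did in DMSO. The part of library composition in this order was not tested.

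**Figure D4:**
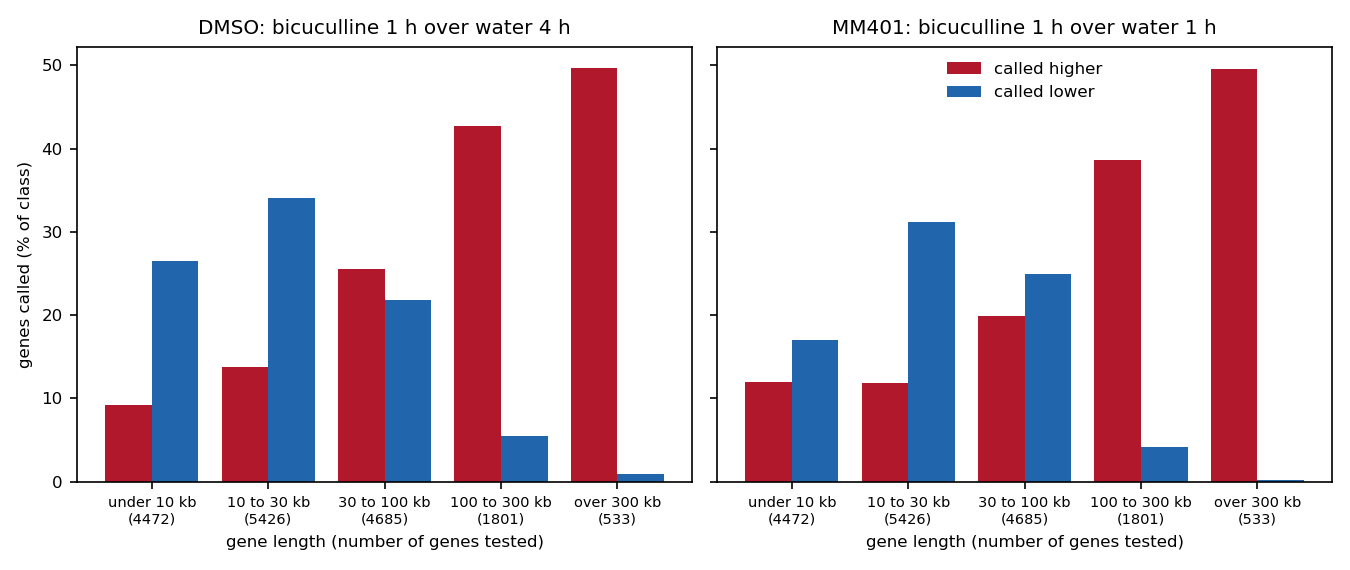
Share of tested genes called higher (red) and lower (blue) (y axis, percent of class) by gene length (x axis, number tested in brackets), for bicuculline 1 h over water 4 h in DMSO (left) and over water 1 h under MM401 (right). In both panels the share called higher is largest over 300 kb (49.7% and 49.5%) and the share called lower is largest at 10 to 30 kb (34.0% and 31.2%).

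The time-matched comparison under MM401 shares no library with the main one and shows how far the response recurred. It called 3070 genes higher (18.1%) and 3699 lower (21.8%). Of the 549 genes at least 2-fold higher in DMSO, 364 (66.3%) were called higher under MM401, none was called lower, and 507 (92.3%) had the same sign; the median log2 fold change was 1.38 in DMSO and 1.00 under MM401. Of the 149 at least 2-fold lower, 89 (59.7%) were called lower and 2 higher, with medians of -1.23 and -0.81. Pearson's correlation of the fold changes across all 16959 genes, which are not independent replicates, was 0.68. MM401 and the water time differ together between these comparisons. In the interaction of bicuculline with MM401, each response taken against its own 4 h water, no gene was called by edgeR (0.00%), while 1326 had an unadjusted p under 0.05. The interaction of Hes5 was -1.39 ± 0.30 (edgeR adjusted p = 0.321) and that of Bdkrb2 1.27 ± 0.38 (edgeR adjusted p = 0.459).

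**Figure D5:**
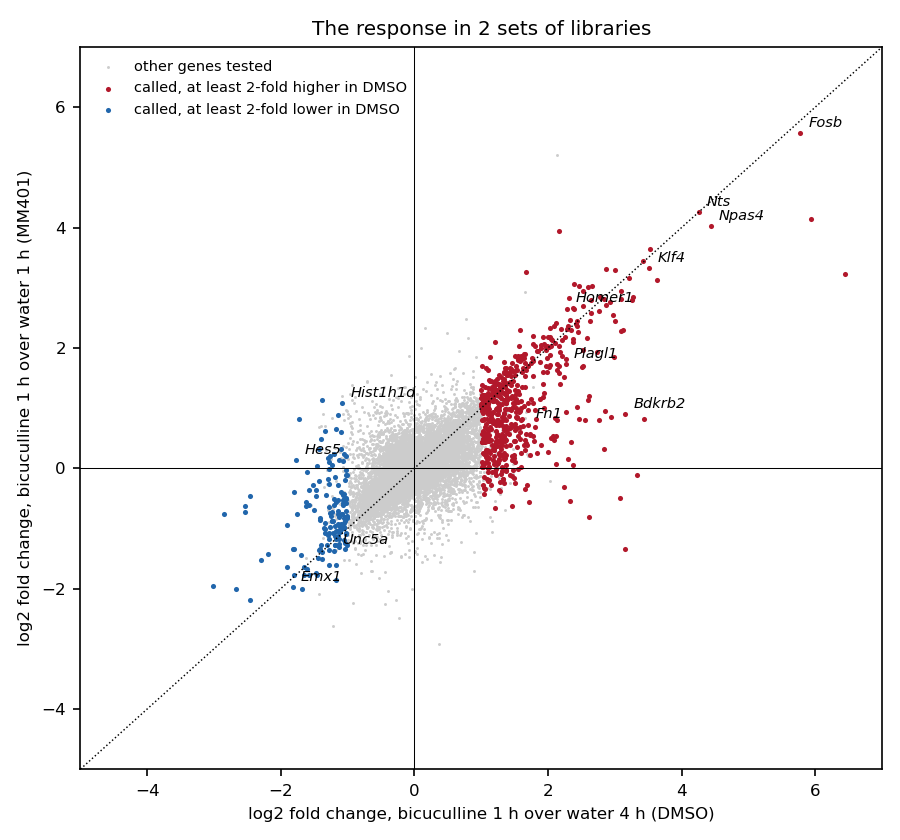
Log2 fold change of bicuculline 1 h over water 4 h in DMSO (x axis) against that over water 1 h under MM401 (y axis) for all genes tested, 1 point per gene, coloured where called and at least 2-fold higher (red) or lower (blue) in DMSO; the dotted line marks equal values and 1 gene lies outside the axes. Nts and Klf4 lie near the line, while Bdkrb2, Fn1 and Hes5 lie off it and Hist1h1d has opposite signs.

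Water for 4 h against 1 h under MM401 gave 45 genes higher (0.265%) and 102 lower (0.601%), 0.867% in all, with 2 libraries at 4 h. These calls depended on single libraries. Without 4 h replicate 1 there were 2 higher and 12 lower, without 4 h replicate 2 13 and 38, without 1 h replicate 2 16 and 41, and without 1 h replicate 3 15 and 46, and with all 21 libraries 2 and 17. What follows rests on them. Of the genes called at least 2-fold higher or lower in the main comparison, 27 were among them, named here after their values were seen. All 25 of the higher genes were lower at 4 h than at 1 h of water, both under MM401; no such difference could be measured in DMSO. Their median log2 fold change was 1.32 in the main comparison, 0.47 at matched time and -0.78 for 4 h over 1 h of water, and 18 of the 25 were still called higher at matched time. Fn1, fibronectin, was at 30.3, 33.7 and 31.1 CPM after bicuculline and 9.27, 10.2 and 9.93 CPM in water (1.69 ± 0.10 in the main comparison, 0.72 ± 0.10 at matched time and -0.84 ± 0.12 for water alone). Cd44, a hyaluronan receptor, gave 1.498 ± 0.10, 0.70 ± 0.10 and -0.60 ± 0.11, and Tnc, the matrix protein tenascin C, 1.37 ± 0.10, 1.08 ± 0.10 and -0.47 ± 0.11. Plagl1, a zinc-finger factor, gave 2.26 ± 0.11, 1.73 ± 0.11 and -0.99 ± 0.13. Slc7a11, the cystine transporter, gave 1.16 ± 0.14, 0.38 ± 0.14 and -0.81 ± 0.16, and Creb5, a CRE-binding factor, 1.35 ± 0.06, 0.49 ± 0.06 and -0.76 ± 0.07. Rorb, a layer 4 marker that is counted among the projection neuron genes above, gave 1.08 ± 0.07, 0.57 ± 0.07 and -0.70 ± 0.08.

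The other 2 of the 27 genes encode linker histones and had opposite signs in the 2 settings. Hist1h1c was at 3.77, 3.65 and 2.88 CPM after bicuculline and 4.88, 8.02 and 9.78 CPM in water (-1.14 ± 0.19), but at 0.88 ± 0.21 against 1 h water under MM401, with water alone higher at 4 h than at 1 h by 1.10 ± 0.22. Hist1h1d gave -1.08 ± 0.22, 1.08 ± 0.24 and 1.23 ± 0.27. Histone genes as a family were looked at after these values were seen. Of 57 tested genes with a Hist symbol, 9 were lower (15.8%, below the 24.5% of all genes) and none higher in the main comparison (median -0.46). At matched time 12 were higher (21.1%, near the 18.1% of all genes) and none lower (median 0.79). For water over time 3 were higher (5.26%, against 0.265% of all genes) and none lower (median 0.67). These genes have near-identical copies, so their counts are uncertain. For them no direction of the bicuculline response can be taken from the main comparison, since time and treatment cannot be told apart in it.

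As a share of all counts, the marker genes of astrocytes, microglia and neurons overlapped between the groups. Astrocyte markers held 0.243% of counts after bicuculline and 0.249% in water (exact permutation p = 0.9), microglial markers 0.00947% and 0.0116% (p = 0.2, exact) and pan-neuronal markers 0.626% and 0.628% (p = 1, exact). Summed per kb, however, the pan-neuronal, excitatory and inhibitory markers did not overlap, as given above. Summed as CPM without regard to length, pan-neuronal markers did overlap, at 6214 to 6633 after bicuculline and 5163 to 6409 in water. On that measure the excitatory markers, at 86.5 to 115 and 63.8 to 77.1 CPM, did not. Nor did the inhibitory markers, at 483 to 562 and 317 to 335 CPM. Endothelial and mural markers, at 0.00619% and 0.00544% (p = 0.1, exact), did not overlap. Of 15 astrocyte markers, 4 were higher and 3 lower (26.7% and 20%, against 18.7% and 24.5% of genes of like length; 2 and 3 with plain library size), or 2 higher without water replicate 1 (and 1 lower without bicuculline replicate 3, water replicate 2 or water replicate 3), with a median of 0.05. At matched time under MM401, 9 of the 15 were higher and none lower (against 18.1% and 21.8% of all genes), with a median of 0.48. Between these comparisons, 2 members were called in opposite directions. Aldh1l1, a folate enzyme of astrocytes, was at 63.9, 76.2 and 81.4 CPM after bicuculline and 30.4, 38.4 and 42.6 CPM in water (0.99 ± 0.12, edgeR adjusted p = 2.86e-06), and at 0.52 ± 0.12 at matched time, with water alone at -0.65 ± 0.14 (edgeR adjusted p = 0.0255). Gjb6, a gap-junction gene, was lower (-0.81 ± 0.20) but at 0.30 ± 0.21 at matched time (edgeR adjusted p = 0.273). Of 13 microglial markers tested, none was higher and 1 lower (0% and 7.69%, against 15.7% and 26.5% of genes of like length). With plain library size, none was higher and 4 lower. Without bicuculline replicate 1 or water replicate 2, 1 was higher and none lower. Of 14 oligodendrocyte lineage markers, 4 were higher and none lower (28.6% and 0%, against 18.5% and 24.1% of genes of like length). With plain library size, 1 was higher and 4 lower. Without bicuculline replicate 2, 2 oligodendrocyte markers were higher, and without water replicate 1, 4 were lower. Of the 12 pan-neuronal markers, 4 were higher and 2 lower (33.3% and 16.7%, against 28.7% and 17.4% of genes of like length; 2 and 5 with plain library size), or 2 higher without water replicate 3 and none lower without bicuculline replicate 1, with a median of 0.06. The one that rose most, Snap25, a SNARE protein of synaptic vesicle fusion, was at 1325, 1433 and 1469 CPM after bicuculline and 757, 703 and 609.9 CPM in water (1.03 ± 0.09, edgeR adjusted p = 4.97e-09). Whether a shift between cell types contributes to any gene's change was not tested.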

How the data were processed

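Gene counts over whole gene spans were deposited by the authors as 1 table of 24984 genes and 21 libraries. Per the submitters' processing notes, Bowtie2, UMI-tools, featureCounts, deepTools and DESeq2 were used with mm10. Versions, filters and the strand setting are not given in the sources used here, so reads of overlapping genes may be shared. Bromouridine-labelled RNA libraries were sequenced as paired ends, per the labels' design text.

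The counts were filtered (filterByExpr, minimum count 10, minimum total 15), scaled by TMM and fitted in edgeR 4.0.16 (R 4.3.3, limma 3.58.1) with a robust quasi-likelihood model and 1 mean per group. The fit held 20 libraries, leaving out 1 MM401 library of 316741 counts. Each comparison is a contrast of this fit, with Benjamini-Hochberg adjustment over 16959 genes, so precision rests on a spread shared across groups. CPM are counts over the scaled total. The scripts were checked on simulated data. DESeq2 1.42.0 served as an alternative.

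Genes were named by rule: the 12 largest changes each way among called genes whose higher group averaged 2 CPM or more and whose libraries did not overlap, outside the immediate-early list and without predicted genes, and up to 3 each way per list, plus immediate-early factors, Kmt2a, Bdnf, Npas4 and Emx1. Where a name falls outside it the text says so. A few genes that the rule names are not reported here. The comparison, the 39 lists and the rule were chosen with earlier results of these data known, and no set test was made. Replicates with the same number did not deviate together in every pair (correlations 0.089, 0.241 and -0.020), so samples were not treated as paired. No pair of replicates agreed within sampling noise (chi-square per degree of freedom 14.4 to 78.5). The edgeR p-values rest on the spread within groups over the 20 libraries of the fit, not on that of the compared groups alone. Promoters are RefSeq windows of GRCm38.p6. Gene starts in the deposited table are counted from 0, since most plus-strand starts lie 1 base before RefSeq's, and are given here counted from 1.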

Additional observations from a re-analysis of the deposited data

How the results depend on the processing

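Nearly all named genes kept their direction, which the choice of most of them as called genes without overlap favours in advance. The counts of calls depended on scaling and on the libraries fitted. Of 221 named genes, 220 were called and 170 kept direction and call under every alternative, 50 lost the call under at least 1, and 1, Kmt2a, reversed, to -0.0012 with plain library size. For bicuculline 1 h against water 4 h in DMSO, plain library size called 1836 genes higher, 6818 lower and 388 at least 2-fold lower, and fitting all 21 libraries called 2667 lower. Of the 5223 genes called with all 21 libraries, 5222 were among the 7557, as were 5997 of the 8654 called with plain library size, 7012 of the 7473 called by DESeq2 and 5774 of the 5819 called when the compared libraries alone were fitted. Leaving out 1 library at a time gave 3115 to 3609 higher, 3126 to 4283 lower, 502 to 583 at least 2-fold higher and 115 to 218 at least 2-fold lower. For bicuculline 1 h against water 1 h under MM401, plain library size gave 1276 higher and 6541 lower, and leaving out 1 library 2516 to 3045 and 2982 to 3498. For water 4 h against water 1 h under MM401, all 21 libraries gave 2 higher and 17 lower, DESeq2 103 and 172, the compared libraries alone 141 and 187, and leaving out 1 library 2 to 35 and 12 to 105, so this comparison limits what can be said of time. The causes were not tested. A replicate block gave 3617 genes higher and 4418 lower, 557 and 156 of them by at least 2-fold; the numbers are not known to pair the cultures. Alternatives for MM401 replicates and for gene classes were added after seeing the data. Genes under 2 CPM were not named, since few counts limit their precision.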
